A study of Mus musculus with 4 samples.

Results

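The 10 genes described here encode the MHC class II presentation machinery of the mouse. They were found by symbol, and all 10 were among the 24421 genes listed in each library. They comprise the alpha chain H2-Aa, the beta chains H2-Ab1 and H2-Eb1, the DM chains H2-DMa, H2-DMb1 and H2-DMb2, the DO chains H2-Oa and H2-Ob, the invariant chain Cd74 and the transactivator Ciita. The libraries, 1 from each of 4 C57BL/6 mice, were made from poly(A) RNA. Animals 139 and 140 were Usp25+/+, and animals 826 and 850 were Usp25-/-, lacking a deubiquitinase. According to the labels all 4 were females aged 8 weeks, given 2.5% dextran sulfate sodium (DSS, a polymer that damages the colon lining) for 5 days and normal water for 2 days, and a piece of distal colon was taken. The comparison is therefore between genotypes under one labelled treatment, with 2 animals in each.

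Class II molecules display peptides from endosomes to CD4+ T cells. An alpha and a beta chain assemble with the invariant chain Cd74, which occupies the groove until endosomal proteases trim it. DM then exchanges the remaining fragment for peptide, and DO restrains DM, mainly in B cells. Ciita is the master coactivator of these genes. It is recruited by factors bound to the X and Y boxes of their promoters, and interferon-gamma induces it, in part through Irf1. Dendritic cells, B cells and many macrophages carry class II, and alveolar type 2 cells of the lung express it constitutively.

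The libraries did not look like the labelled tissue. Of 15 colon epithelium markers found, 10 were under 1 FPKM in every library, and Cdx1, Aqp8 and Zg16 were listed at 0 throughout. The 3 that could be tested, Lgals4, Krt20 and Guca2a, stood higher without overlap in Usp25-/-, as did 19% of all tested genes. Their median log2 fold change was 2.31. Limma called 0 of them, and 826 was highest in each, as with Lgals4 at 7.04, 9.83, 70.6 and 28.8 FPKM in 139, 140, 826 and 850. FPKM counts sequenced fragments per transcript length and per mapped fragments of the library. The 10 alveolar type 2 cell markers summed to between 1528 and 4998 FPKM, against 13.4 to 143 FPKM for the colon markers. Usp25 itself was lower in both Usp25-/- libraries, with 38.5 and 16.6 FPKM for animals 139 and 140 (Usp25+/+) against 2.65 and 1.71 FPKM for 826 and 850 (Usp25-/-). Its log2 fold change was -3.07 (SE 0.47), and with 2 animals a genotype even this did not pass (limma adjusted p = 0.960). Library 139 stood apart in neutrophil genes, with all 11 markers highest there and a summed level of 41958 FPKM against 759, 2172 and 1267 FPKM in 140, 826 and 850. The values below therefore describe these libraries by genotype label, without reference to colon or DSS.

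Of the 10 genes, 8 lie within 224 kb of chromosome 17 (mm9 positions 34229285 to 34453144), in the order H2-Oa, H2-DMa, H2-DMb2, H2-DMb1, H2-Ob, H2-Ab1, H2-Aa and H2-Eb1. Ciita lies apart, on chromosome 16 (10480237 to 10527657). All 10 are annotated as protein coding.

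RefSeq promoters, short stretches around a start, were matched for 7 of the 10 and placed on mm9 by exact match of the whole stretch. H2-Ab1, Cd74 and Ciita were not matched. The stretches below are shown because they hold letters like those of the X and Y boxes through which Ciita is known to act. Capitals mark GNAAC, as in the X box core, and GATTGG, as in the Y box. Both strands were searched for GNAAC followed by 24 to 27 bases and then GATTGG, and the 2 motifs do not overlap. They were chosen with these promoters in view.
H2-Aa: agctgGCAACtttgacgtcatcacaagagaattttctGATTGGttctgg
H2-Eb1: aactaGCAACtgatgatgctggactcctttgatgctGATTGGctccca
H2-DMb1: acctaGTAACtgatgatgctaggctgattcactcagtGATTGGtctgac
H2-DMb2: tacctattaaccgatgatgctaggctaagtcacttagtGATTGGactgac
H2-Oa: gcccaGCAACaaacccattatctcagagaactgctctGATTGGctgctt
H2-Ob: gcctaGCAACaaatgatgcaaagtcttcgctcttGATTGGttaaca

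On mm9 these stretches are chr17:34424806-34424854 for H2-Aa on the minus strand and, on the plus strand, chr17:34442716-34442763 for H2-Eb1, chr17:34290037-34290085 for H2-DMb1, chr17:34282065-34282114 for H2-DMb2, chr17:34229243-34229291 for H2-Oa and chr17:34375758-34375803 for H2-Ob. The pair was found in 5 of the 7 matched genes. Among 32851 RefSeq promoters of the same length (GRCm38.p6), 77 held it (0.234%), while GATTGG alone was in 16.1% on either strand. H2-DMb2 has GATTGG but no GNAAC before it in this window. Its stretch lies farther upstream, ending 80 bases before the RefSeq start, against 33 to 51 bases in the 5 genes with the pair. The RefSeq promoter of H2-DMb2 lies inside the mm9 gene model used here, which starts at 34280252. Neither of the RefSeq promoters of H2-DMa holds the pair, and both lie upstream of the mm9 gene model used here. A match is a run of letters, not a measured binding site.

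The classical chains varied more between the 2 Usp25+/+ animals than between genotypes. H2-Aa, which encodes the alpha chain of I-A, had 238 and 1113 FPKM in the Usp25+/+ libraries 139 and 140 against 576 and 623 FPKM in the Usp25-/- libraries 826 and 850. The Usp25-/- libraries lay close together, inside the wide Usp25+/+ range. H2-Ab1, its beta chain partner, was listed at 221 and 880.5 FPKM against 387 and 472 FPKM. H2-Eb1, the beta chain of I-E, was listed at 91.0 and 460.5 FPKM against 238 and 275 FPKM. In all 3 genes library 139 was lowest and 140 highest, 4.68-fold, 3.98-fold and 5.06-fold above 139, while 850 was 1.08-fold, 1.22-fold and 1.15-fold above 826. The means were 675 ± 619 against 599 ± 33.2 FPKM for H2-Aa, 551 ± 466 against 429.8 ± 60.2 FPKM for H2-Ab1 and 276 ± 261 against 256 ± 25.9 FPKM for H2-Eb1 (SD, n = 2 each). In these bulk libraries fewer class II cells and less class II RNA per cell cannot be told apart. The alpha chain of I-E is a pseudogene in C57BL/6 mice, and H2-Ea-ps reached 0.290 FPKM in 139 while 140, 826 and 850 had it listed at 0.

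**Figure D1:**
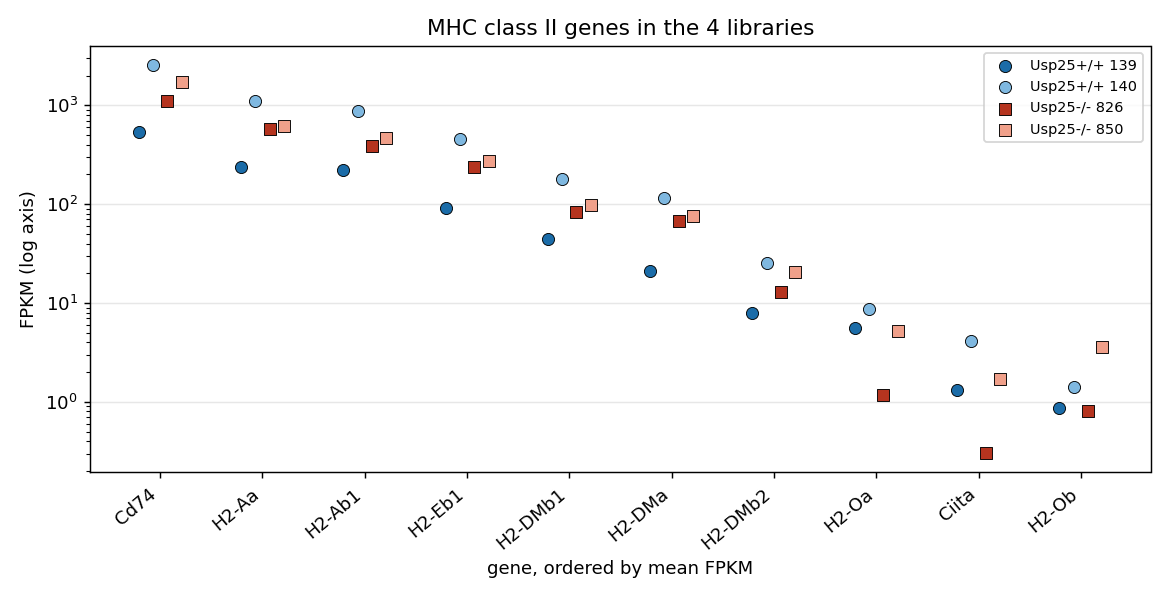
FPKM on a log axis for each of the 10 genes, ordered by mean, with 1 point per library (circles Usp25+/+, squares Usp25-/-). Both Usp25-/- libraries lie between 139 and 140 in 7 genes, while H2-Oa, Ciita and H2-Ob do not follow that order.

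Cd74, on chromosome 18 (60963502 to 60972300), was the most abundant member and spread the same way. It had 539.5 and 2540.2 FPKM in the Usp25+/+ libraries against 1096 and 1742 FPKM in the Usp25-/- libraries, which ranked it 35th by mean among 12011 tested genes. Again 139 was lowest and 140 highest, a 4.71-fold difference. The means were 1539.9 ± 1415 and 1419 ± 456 FPKM (SD, n = 2 each). The 10 genes together made up 0.219% of the summed FPKM in 139, 0.976% in 140, 0.435% in 826 and 0.630% in 850.

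The DM chains, which load peptide, followed the classical chains. H2-DMa had 20.9 and 114 FPKM in the Usp25+/+ libraries against 67.2 and 76.4 FPKM in the Usp25-/- libraries. H2-DMb1 was listed at 44.0 and 179.8 FPKM against 82.4 and 97.0 FPKM. H2-DMb2 was listed at 7.91 and 25.7 FPKM against 13.0 and 20.5 FPKM. Each was lowest in 139 and highest in 140, with folds of 5.48, 4.09 and 3.24. H2-DMb1 and H2-DMb2 are neighbouring copies whose longest annotated transcripts were identical at 94.7% of aligned bases. Of the windows of 100 bases, the stated read length, 13.8% in H2-DMb1 and 12.1% in H2-DMb2 occurred exactly in the other gene, so the split of reads between them is uncertain. None of the other 8 members shared such a window with a different protein-coding gene.

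The DO chains and Ciita were low and did not follow that order. H2-Oa, the DO alpha chain, had 5.61 and 8.77 FPKM in the Usp25+/+ libraries against 1.17 and 5.24 FPKM in the Usp25-/- libraries. It was the only member whose genotypes did not overlap, beside 33.8% of tested genes in either direction. H2-Ob, the DO beta chain, was listed at 0.872 and 1.42 FPKM against 0.810 and 3.55 FPKM, highest in 850. Ciita was listed at 1.32 and 4.10 FPKM against 0.303 and 1.72 FPKM. In these 3 genes 826 was the lowest library, and 850 stood 4.49-fold, 4.39-fold and 5.67-fold above it. Among tested genes, 3.08% stood at least 3-fold higher in 850 than in 826, and of the 10 members these 3 did.

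These low values rest on few fragments. In genes with 1 annotated transcript, the product of FPKM and length in kb peaked sharply at 0.228, 0.285, 0.360 and 0.384 in 139, 140, 826 and 850. If that step is 1 fragment, the depths relative to 850 were 1.68, 1.35 and 1.07 for 139, 140 and 826, so that 139 was the deepest. By the longest annotated transcript, the values in 826 would then be worth about 3.99 fragments for H2-Oa, 6.01 for H2-Ob and 4.45 for Ciita, against 16.8, 24.8 and 23.7 in 850. For H2-Aa the same estimate gives 1181 fragments or more in every library. A smaller peak lay at lower products, at 0.114 in 139 and 0.192 in 850, so the step could also be more than 1 fragment.

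The levels kept one order in all 4 libraries. By FPKM, which is per length, Cd74 stood above H2-Aa, followed by H2-Ab1, H2-Eb1, H2-DMb1, H2-DMa, H2-DMb2 and H2-Oa. Ciita and H2-Ob came last and changed places, with Ciita above H2-Ob in both Usp25+/+ libraries and below it in both Usp25-/- libraries. In 826 this rests on an estimated 4.45 fragments for Ciita and 6.01 for H2-Ob. How many other gene pairs change places this way was not computed. The means of neighbours such as H2-Aa and H2-Ab1 differ by less than their spread over animals, although the order within each library was the same.

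No member passed the test between genotypes. Limma on log2(FPKM + 1), adjusted by Benjamini-Hochberg over the 12011 genes averaging 1 FPKM or more, called 0 of the 10 members and 0% of all genes at an adjusted p of 0.05. All 10 members passed that filter. At an unadjusted p of 0.05 it took 0 members and 3.12% of all genes. The log2 fold changes (Usp25-/- minus Usp25+/+) ran from -1.13 to 0.53 with a median of 0.19, beside a median of 0.03 over all genes tested. They were negative in 3 members, against 46.5% of all genes. For H2-DMa, with the largest positive value, it was 0.53 (SE 0.80, limma 95% interval -1.50 to 2.57). For H2-Aa it was 0.22 (SE 0.77), for H2-Eb1 0.32 (SE 0.79), for Cd74 0.24 (SE 0.82), for H2-DMb2 0.17 (SE 0.59), for H2-DMb1 0.0040 (SE 0.69) and for H2-Ab1 -0.05 (SE 0.71). The limma adjusted p of the 10 members ran from 0.960 to 0.999. The interval of H2-Aa, -1.74 to 2.18, leaves room for a change of more than 1 log2 unit in either direction.

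H2-Oa, Ciita and H2-Ob had the other values. H2-Oa had -1.13 (SE 0.57, limma adjusted p = 0.960), with means of 7.19 ± 2.23 against 3.20 ± 2.88 FPKM (SD, n = 2 each). Ciita had -0.87 (SE 0.58), with 2.71 ± 1.97 against 1.01 ± 1.00 FPKM, and 850 lay above 139. H2-Ob had 0.43 (SE 0.54), with 1.15 ± 0.389 against 2.18 ± 1.94 FPKM. Non-overlap with a lower level in Usp25-/-, seen in 1 member, was found in 14.7% of all tested genes. With 2 animals in each genotype, an exact permutation test of 1 gene cannot give a two-sided p below 0.333.

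The direction of the genotype difference in most abundant members turned with the libraries kept. Both Usp25-/- libraries lay within the Usp25+/+ range in 7 of 10 members, beside 27.7% of tested genes, and the same 7 were lowest in 139 and highest in 140, beside 16% of tested genes. In 8 members 140 was at least 3-fold above 139, beside 5.51%. Ciita at 3.11-fold and H2-DMb2 at 3.24-fold were only just over that cutoff. Without 139 the median of the 10 log2 fold changes was -0.89, with 9 members negative, beside 50.7% of all genes, and 9 lay lower without overlap, beside 36.8%. Without 140 it was 0.98, with 8 positive, beside 56%, and 7 lay higher without overlap, beside 45.8%. The sign turned between these fits in 7 members, beside 46.2%. Cd74 went from -0.88 without 139 to 1.36 without 140, H2-Aa from -0.89 to 1.33, and H2-DMa from -0.67 to 1.73. No member and no other gene passed at an adjusted p of 0.05 in either fit. The smallest adjusted p among members, that of H2-DMa without 140, was 0.0893, which compares 1 Usp25+/+ library with 2 and assumes that it varies like the others. The Usp25-/- libraries mattered too. Without 850 the median was -0.13, and Cd74, H2-DMb1, H2-DMb2 and H2-Ob turned to -0.10, -0.11, -0.14 and -0.23. Without 826 H2-Ab1 turned to 0.10. H2-Oa and Ciita stayed negative whichever library was left out, H2-Oa between -1.89 and -0.37 and Ciita between -1.44 and -0.30. Without 826 they were -0.37 and -0.34.

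**Figure D2:**
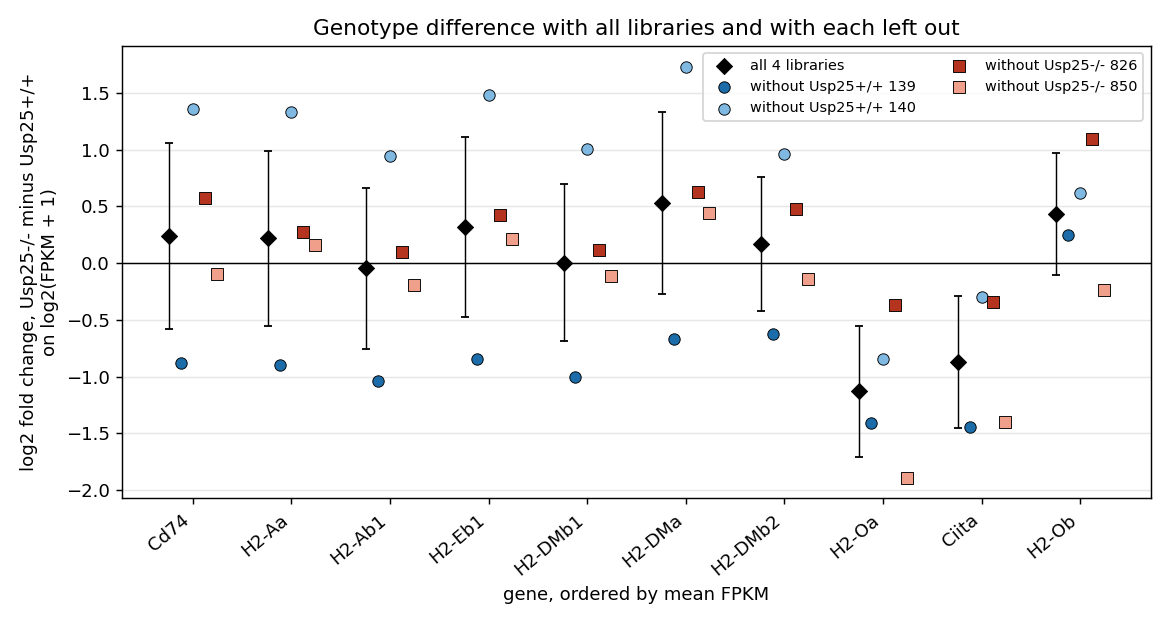
Log2 fold change (Usp25-/- minus Usp25+/+, on log2(FPKM + 1)) of each gene with all 4 libraries (diamonds, bars are 1 SE) and with each library left out. Without 139 every gene but H2-Ob is below 0, and without 140 every gene but H2-Oa and Ciita is above 0.

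The proportions among abundant members varied less over the libraries than their levels did. H2-DMb1 stood at 0.199, 0.204, 0.213 and 0.205 of H2-Ab1 in 139, 140, 826 and 850, a spread of 1.07-fold, although H2-Ab1 itself spread 3.98-fold. The ratios of H2-Aa, H2-DMb2, H2-Eb1, Cd74 and H2-DMa to H2-Ab1 spread between 1.38-fold (H2-Aa) and 1.84-fold (H2-DMa). H2-Aa stood at 1.07, 1.26, 1.49 and 1.32 times H2-Ab1, and Cd74 at 2.44, 2.88, 2.83 and 3.69 times. H2-Eb1 stood at 0.411, 0.523, 0.614 and 0.581 of H2-Ab1, and H2-DMa at 0.0943, 0.130, 0.173 and 0.162. H2-Aa, H2-Eb1, H2-DMa and H2-DMb1 were each higher relative to H2-Ab1 in both Usp25-/- libraries than in either Usp25+/+ library. For H2-DMb1 the gap was slight, 0.204 in 140 against 0.205 in 850. Ciita was lower, at 0.00596 and 0.00466 against 0.000782 and 0.00363 of H2-Ab1. These 5 are of 9 ratios to H2-Ab1, beside 8.27% of the 11778 other tested genes above 0 in every library. The shares are not alike in make-up, since the ratio of a gene without the difference between 139 and 140 keeps the spread of H2-Ab1. The 5 ratios also share 1 denominator.

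The ratio of the DO chains did not overlap between genotypes, on few fragments. Of 13 ratios computed among members 8 did not overlap, and with 2 animals in each genotype an exact permutation test of any one cannot go below 0.333. Only for ratios to H2-Ab1 was a share over other genes computed, so the count of 8 has no background and nothing is read from it. H2-Ob stood at 0.155 and 0.162 of H2-Oa in Usp25+/+ and at 0.695 and 0.679 in Usp25-/-, which are levels per length. H2-Oa stood at 0.269 and 0.0766 of H2-DMa in Usp25+/+ and at 0.0174 and 0.0686 in Usp25-/-. It was lower in both Usp25-/- libraries, with 140 and 850 nearly level. H2-DMb2 stood at 0.180 and 0.143 against 0.158 and 0.211 of H2-DMb1, overlapping.

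**Figure D3:**
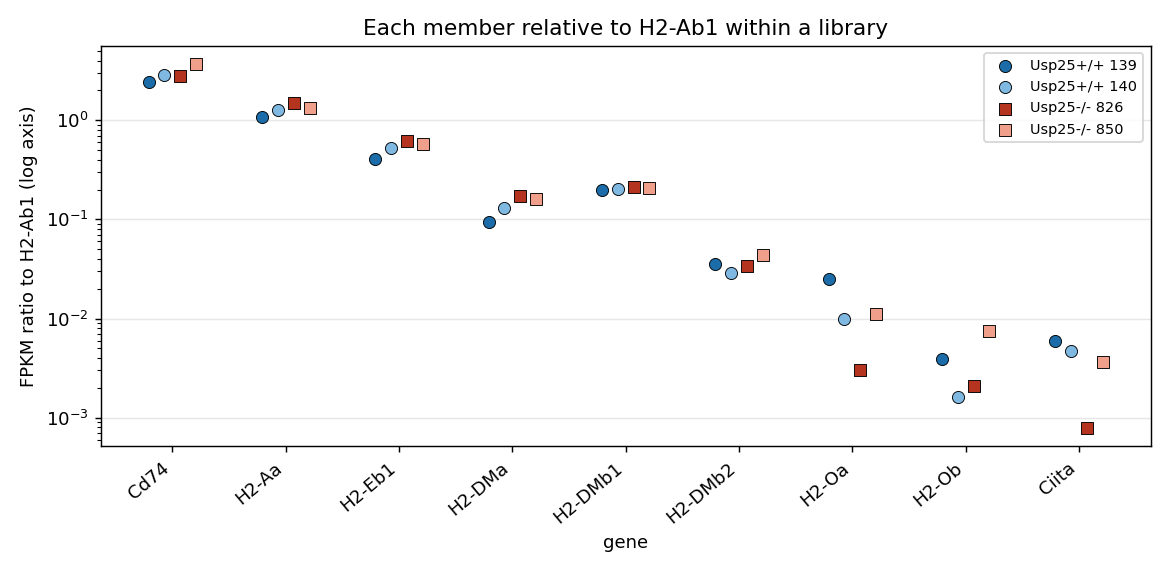
FPKM of each gene divided by that of H2-Ab1 in the same library, on a log axis (circles Usp25+/+, squares Usp25-/-). H2-DMb1 varies 1.07-fold over the 4 libraries, whereas H2-Oa, H2-Ob and Ciita vary 8.42-fold, 4.66-fold and 7.62-fold.

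The listed transcription factors and coactivators did not, as a set, share the profile of the members. Limma called 0 of the 18 tested, with 15 negative and 3 positive values and a median of -0.33. Of these, 9 were lower without overlap in Usp25-/-, beside 14.7% of all genes, and 10 were highest in 139, where the classical chains were lowest. The X box factors Rfx5, Rfxank and Rfxap were listed in 139, 140, 826 and 850 at 5.08, 2.44, 2.07 and 1.89 FPKM, at 3.11, 5.76, 3.08 and 4.55 FPKM and at 3.91, 5.21, 3.09 and 3.77 FPKM. Rfx5 was highest in 139, and the other two in 140. The Y box subunit Nfya was listed at 18.0, 14.0, 1.02 and 11.2 FPKM. Its log2 fold change was -1.77 (SE 0.86), and -0.47 without 826. Nlrc5, the related coactivator of class I genes, had -1.77 (SE 0.74), or -0.71 without 139. The myeloid factors Irf8 and Spi1 had -0.98 (SE 0.37) and -0.73 (SE 0.35), and neither overlapped. Spi1 had 185 and 243 FPKM in the Usp25+/+ libraries against 109.5 and 148 FPKM in the Usp25-/- libraries.

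The interferon-gamma input to Ciita was highest where most class II genes were lowest. Ifng itself was listed at 8.36, 0.456, 0 and 0 FPKM in 139, 140, 826 and 850. Irf1 was listed at 242, 78.6, 30.6 and 46.0 FPKM in that order. Library 139 stood far above the rest and the genotypes did not overlap. The log2 fold change of Irf1 was -1.85 (SE 0.60), or -1.05 without 139. Jak2 had -1.04 (SE 0.89), or 0.32 without 139. Limma called 0 of these 8 genes. Of the 8, 7 were negative and 7 were highest in 139, and the median of -0.75 became -0.077 without 139. Ciita was 3.11-fold higher in 140 than in 139, against the order of Ifng and Irf1. Like Irf1, Ciita was lowest in 826, at 0.303 FPKM, and higher in 850, at 1.72 FPKM. The part of this input in the Ciita level was not tested.

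Genes of the loading compartment partly shared the profile. Limma called 0 of 16, with 7 negative and 9 positive values and a median of 0.20. Of the 16, 10 were lowest in 139 and 11 highest in 140. Over all tested genes 16% were both, a joint count not reported for this list. Counts for a single library, here and in the other lists, have no share over all genes beside them. Ctss, the protease that trims the invariant chain, had 1448 and 4079 FPKM in the Usp25+/+ libraries against 3654 and 3629 FPKM in the Usp25-/- libraries. Both Usp25-/- libraries lay just under 140 and well above 139, and the log2 fold change was 0.58 (SE 0.62), or -0.16 without 139. The tetraspanins Cd37 and Cd82 had -0.99 (SE 0.34) and -0.60 (SE 0.37), and the cathepsin Ctsz -0.48 (SE 0.37), each lower without overlap. Cd37 was listed at 63.9 and 52.0 against 23.3 and 34.9 FPKM.

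Of the turnover and transport genes 5 of 12 were highest in 139, and of the co-stimulation genes 7 of 13 were. March1, a ubiquitin ligase that removes class II from the cell surface, had 38.2 and 20.3 FPKM in the Usp25+/+ libraries against 11.7 and 19.2 FPKM in the Usp25-/- libraries. Its log2 fold change was -0.85 (SE 0.44), or -0.41 without 139 and -0.52 without 826. Of the 12 turnover and transport genes limma called 0, with 7 negative and 5 positive and a median of -0.05. Rab7, of late endosomes, had -0.69 (SE 0.44), or -0.21 without 139. Rilp had 0.61 (SE 0.48), or -0.024 without 139, the library in which it was lowest. The adaptor subunit Ap1m1 had -0.55 (SE 0.31), or -0.32 without 826. Of 10 tested co-stimulation and recognition genes limma called 0, with 8 negative, 2 positive and a median of -0.88, which became 0.014 without 139. The ligand Cd274 (PD-L1) was listed at 374, 55.6, 45.3 and 45.5 FPKM in 139, 140, 826 and 850, and Cd80 at 48.9, 9.75, 10.4 and 11.1 FPKM. Library 139 alone was high in both. Cd40 had -1.54 (SE 0.65), or -0.72 without 139. Ctla4 had -1.08 (SE 0.56), or -0.31 without 826. Nearby on chromosome 17, Brd2 had -0.27, and H2-Eb2 and Btnl2 were under 1 FPKM in every library.

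**Figure D4:**
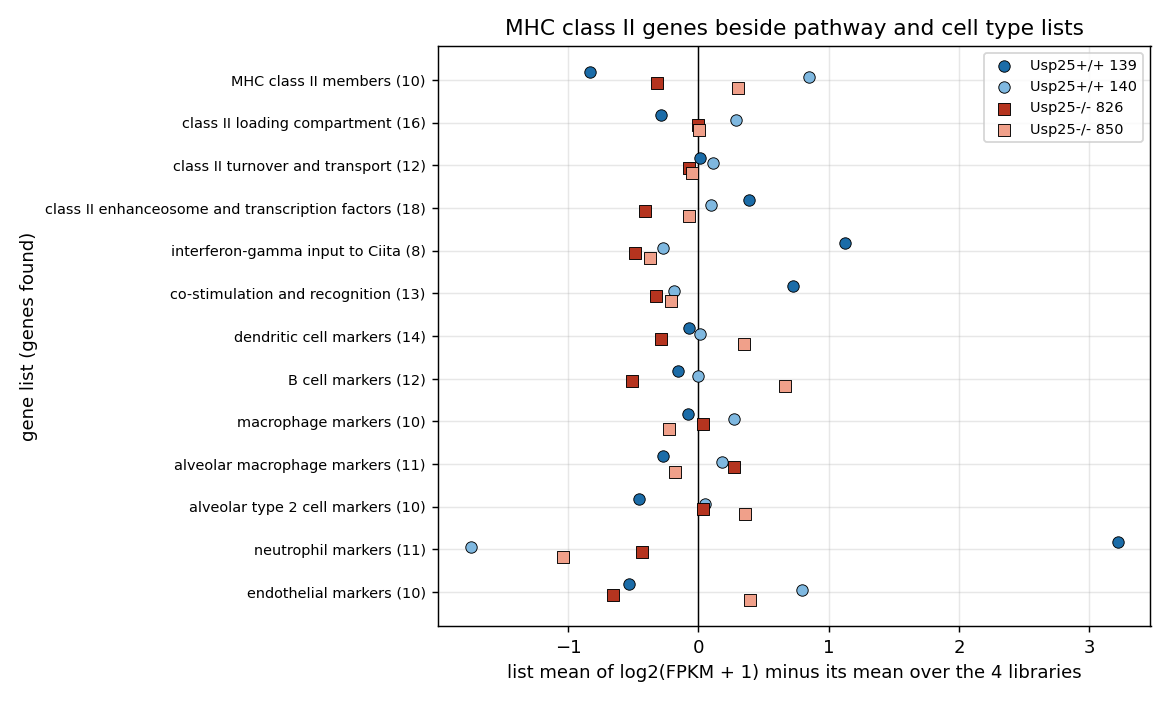
Mean log2(FPKM + 1) of each gene list in each library, minus the list's mean over the 4 libraries (circles Usp25+/+, squares Usp25-/-). The class II genes are lowest in 139 and highest in 140, whereas the interferon-gamma input, co-stimulation and neutrophil lists are highest in 139.

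Several marker lists of cells that carry class II had lower sums in 139 than in 140, the order seen in most members, though single markers varied. Sums are given with all markers and without the most abundant of each list, the latter chosen after the values were seen. Dendritic cell markers (14 found) summed to 132 and 244 FPKM in the Usp25+/+ libraries against 125 and 197 FPKM in the Usp25-/- ones. Most of that was Itgax, listed at 96.1, 208, 99.4 and 139.8 FPKM in 139, 140, 826 and 850, and 4 of the 14 were under 1 FPKM in every library. Itgax had the order of H2-Aa over the libraries, and the sums without it were 35.6 and 36.8 against 26.0 and 57.2 FPKM. Of 10 tested dendritic cell markers, 3 were lowest in 139 and 2 highest in 140. Macrophage markers (10 found) summed to 4379 and 2495 FPKM against 2679 and 1756 FPKM, the 139 value being mostly Cd14, at 3392 FPKM. Without Cd14 they summed to 987 and 1822 against 1186 and 1119 FPKM, the order of 139 and 140 in most members, and 6 of the 10 were lowest in 139 and 5 highest in 140. Alveolar macrophage markers (11) summed to 7596 and 10969 against 10881 and 8164 FPKM, and without Chil3 to 1377 and 2192 against 1999 and 1784 FPKM. Of these 11, 7 were lowest in 139 and 6 highest in 140. Alveolar type 2 cell markers (10) summed to 1528 and 3874 against 4998 and 4655 FPKM, and without Sftpb to 662 and 2735 against 1714 and 3075 FPKM. Of the type 2 cell markers, 6 were lowest in 139 and 1 was highest in 140. Endothelial markers (10) summed to 139.3 and 373 against 129 and 279 FPKM, with 8 of 10 highest in 140. Only 4 of them were lowest in 139. The part of cell numbers in the class II levels was not tested.

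All 12 B cell markers stood higher in 850 than in 826. So did every member, from 1.08-fold for H2-Aa to 5.67-fold for Ciita, with H2-Oa and H2-Ob at 4.49-fold and 4.39-fold. The share of all genes higher in 850 than in 826 was not computed, so nothing is read from these counts. In 850 H2-Oa and Ciita were below their level in 140. The 12 markers summed to 19.0 and 40.9 FPKM in the Usp25+/+ libraries against 15.6 and 50.6 FPKM in the Usp25-/- ones. Cd22, most of the sum in 140 and 826, was listed at 7.93, 28.1, 9.24 and 17.1 FPKM in 139, 140, 826 and 850, with the order of the classical chains. Without Cd22 the sums were 11.1 and 12.8 against 6.38 and 33.6 FPKM. Cd79b was lowest in 139, at 0.885 FPKM. Cd79a was listed at 1.70, 1.88, 1.56 and 8.06 FPKM in 139, 140, 826 and 850. Ms4a1 was listed at 0 in 826 and at 1.87 FPKM in 850, and Pax5 at 0 in all libraries but 850. The 11 T cell markers were also all higher in 850, at 8.67 FPKM summed in 826 and 31.0 in 850. Higher in 850 as well were 10 of 10 endothelial and 13 of 14 dendritic cell markers. The other lists did not share this. Higher in 850 were 6 of 10 alveolar type 2 cell, 5 of 10 macrophage and 2 of 11 alveolar macrophage markers. For neutrophil and colon epithelium markers it was 3 of 11 and 0 of 15. The part of these cells in the DO and Ciita levels was not tested.

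The genes nearest in profile to the mean of the 10 members were sought outside the lists. Likeness was the Euclidean distance between centred log2(FPKM + 1) values over the 4 libraries, among 5076 genes averaging 10 FPKM or more. The nearest were Awat1 (0.0986), Zranb3 (0.110), Tnfaip8l2 (0.124), Eln (0.145), Tspan17 (0.162) and Cxx1a (0.202). Of the members, H2-DMb2 lay at 0.197, H2-Ab1 at 0.322, H2-DMb1 at 0.360, Cd74 at 0.465, H2-Aa at 0.573 and H2-Oa farthest at 1.51. Among the candidates Cd74 would rank 122nd and H2-Aa 219th, so many genes lie closer to this mean than these abundant members. Tnfaip8l2 was listed at 22.3, 81.8, 35.5 and 56.1 FPKM in 139, 140, 826 and 850. By the rule, genes of the lists were not candidates, and nothing on function follows from a profile over 4 libraries.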

How the data were processed

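The deposited values are taken as FPKM, made by the authors with cutadapt, TopHat2 2.1.1 and Cufflinks on build mm9, per the submitters' processing notes, and no header or label states the unit. Per the labels' protocols the libraries were not strand-specific. Groups came from the titles. Genotypes were tested two-sided on log2(FPKM + 1), a scale on which low genes show less than their true fold, by limma 3.58.1 (lmFit, eBayes with trend, R 4.3.3). Fits that leave out a library kept the same 12011 genes. The members and the lists (191 symbols, 184 found) were chosen with earlier results of these data known. Named genes were the members, Usp25, the 4 tested genes of each list with the largest absolute log2 fold change, defining markers, and the 6 nearest profiles. Rfx5, Rfxank, Rfxap and genes of the class II locus outside this rule were chosen after their values were seen. Positions are from GENCODE vM1 on mm9. Depth was estimated from steps in low values, since no counts were used. The fits were tested on simulated data with 200 changed genes. Alternatives were other pseudocounts (0.1 and 5 FPKM), filters, scalings, variance models and each library left out. Some genes that this rule names are not reported here.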

Additional observations from a re-analysis of the deposited data

How the results depend on the processing

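Limma called 0 members and 0 genes under all 9 alternatives and with each library left out. At an unadjusted p of 0.05 the count over all genes was 375, and 569 without the filter and 227 with a filter of 5 FPKM. Of members, 0 passed that unadjusted threshold with every library kept, under any pseudocount, filter, scaling or variance model. With a library left out, members did pass it in some fits. Each such fit has a single library in that genotype, so its unadjusted counts are not given. Direction was kept under every pseudocount, filter, scaling and variance model except for H2-DMb1, whose 0.0040 became -0.011 with a pseudocount of 5, and -0.029, -0.011 and -0.0071 with scaling by median of ratios, equal totals and upper quartile. H2-Ob and Ciita were not tested at the filter of 5 FPKM. With 1 library left out, log2 fold changes ran from -0.89 to 1.33 for H2-Aa, -1.04 to 0.95 for H2-Ab1, -0.85 to 1.48 for H2-Eb1, -0.67 to 1.73 for H2-DMa, -1.0001 to 1.01 for H2-DMb1, -0.62 to 0.96 for H2-DMb2, -0.23 to 1.10 for H2-Ob and -0.88 to 1.36 for Cd74. Members without overlap then numbered 1 to 9 lower and 0 to 7 higher, the 9 without 139 and the 7 without 140. The medians ran from -1.66 to -0.077 for the interferon-gamma input, -0.28 to 0.58 for the loading compartment and -1.41 to 0.014 for co-stimulation. With the filter of 5 FPKM the median of transcription factors and coactivators was -0.62, over fewer genes. For Ciita a pseudocount of 0.1 gave -1.51 and one of 5 gave -0.35, and for H2-Oa -1.45 and -0.61. No paired analysis was possible because the genotypes share no animal numbers. Depth limits H2-Oa, H2-Ob and Ciita most.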
